A study of Mus musculus with 6 samples.

Results

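The 50 genes described here encode splicing factors of 4 families, taken by their symbols. They are the protein-coding mouse genes whose symbol begins with Srsf (11 genes, the SR family), Hnrnp (19 genes, the hnRNP family), Snrp (11 genes, the snRNP family) or Sf3 (9 genes, the SF3 family), out of 27179 gene identifiers counted. The choice left out 2 further symbols with these prefixes, which are not reported here, and pseudogenes, including 1 gene that the annotation lists as protein-coding under a pseudogene name (Hnrnpa1l2-ps2). RNA came from mouse embryonic stem cells of the ES-E14TG2a background, kept on gelatin in 2i + Lif medium, which holds such cells in a naive pluripotent state. All libraries are from cells with a FLAG tag on Trim71, a TRIM-NHL protein that binds RNA. The WT group (3 libraries, A to C) has FLAG-Trim71 without another change, and the R783H group (3 libraries, A to C) has FLAG-Trim71 with R783H, a single amino-acid change that the series links to hydrocephalus. RNA was selected on oligo(dT) and sequenced, and the comparison of R783H with WT asks which transcripts differ when this residue is changed. Whether the letters are clones, cultures or library preparations is not stated, so the p-values measure the spread between these libraries, which may be technical.

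Introns are removed from pre-mRNA by the spliceosome, which is built anew on each intron from small nuclear ribonucleoprotein particles (snRNPs). Most of the particles hold a small nuclear RNA, a shared ring of Sm proteins and proteins of their own, whereas the U6 particle carries a ring of related LSm proteins, and the SF3 subunits belong to the U2 particle, which marks the branch point. SR proteins carry arginine-serine repeats and mostly bind exons, where they favour inclusion, whereas hnRNP proteins coat pre-mRNA and often favour skipping. Many SR and hnRNP genes regulate their own mRNA through alternatively spliced exons that send transcripts to nonsense-mediated decay. The values here are read counts per gene, summed over all its transcripts, so such isoforms are not separated.

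Total counts were higher in every R783H library (27807385 to 29079670) than in every WT library (20894277 to 25174121). Levels are given as CPM, counts per 1000000 counts of the TMM-scaled library size. A count of 3, taken as the floor, equals 0.103 to 0.144 per 1000000 counts of the unscaled library totals. R783H B stood apart from R783H A and C, with a chi-square statistic per degree of freedom of 10.6 and 11.6 against 2.12 between A and C, so results are also given without it where they change. Trim71 mRNA itself overlapped between the groups, at 140.5 ± 16.4 CPM in WT and 144 ± 12.8 CPM in R783H (SD, n = 3 each), and since the change is of 1 residue its level is no check of the labels. All 7 embryonic stem cell markers of the list (Pou5f1, Sox2, Nanog, Esrrb, Klf4, Zfp42 and Tfcp2l1) were present, with a summed level of 5768 to 5843 CPM in R783H and 6095 to 6181 CPM in WT. Summed markers of fibroblasts (4 genes) stayed at or below 3.66 CPM in every library. Those of mesoderm (3 genes) were at 34.5 to 39.8 CPM in R783H and 59.6 to 63.5 CPM in WT, those of endoderm (3 genes) at 7.44 to 8.38 and 3.06 to 4.80 CPM, those of neural cells (2 genes) at 12.1 to 14.7 and 8.11 to 9.38 CPM, and those of trophectoderm (2 genes) at 36.2 to 42.4 and 39.2 to 46.1 CPM. The sums hide single markers. From WT to R783H, Cdx2 of trophectoderm fell from 6.04 ± 0.0380 to 1.86 ± 0.516 CPM (SD, n = 3 each), while Krt8, most of that sum, stood at 37.0 ± 3.48 and 36.7 ± 3.02 CPM. Thy1 of fibroblasts fell from 1.31 ± 0.0743 to 0.194 ± 0.111 CPM. It had only 2, 7 and 8 raw counts in R783H A to C, of which A is below the floor. Col1a2 of the same list went the other way, from 0.944 ± 0.0757 to 1.22 ± 0.239 CPM. Among the stem cell markers Pou5f1 (1022 ± 31.8 to 882 ± 64.2 CPM), Nanog (628 ± 11.7 to 535 ± 6.16) and Zfp42 (1133 ± 7.78 to 886 ± 18.4) were lower in every R783H library. Sox2, Esrrb and Klf4 overlapped between the groups. Tfcp2l1 also overlapped (1235 ± 73.5 to 1386 ± 60.5 CPM), but edgeR called it higher (log2 fold change 0.17, Benjamini-Hochberg adjusted p 0.0150). With the offset for transcript length and GC content described below Tfcp2l1 was called lower, at -0.16. No marker was at 0 counts in all 6 libraries, and the part of these differences in the results was not tested. In bulk RNA, fewer cells of a type and less RNA per cell cannot be told apart.

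Most splicing factor mRNAs were lower in R783H. Of the 50 genes, all of which passed the low-count filter, 44 fell, 2 rose and 4 did not pass the test (edgeR's quasi-likelihood test, Benjamini-Hochberg adjusted p under 0.05 over all 14199 tested genes). The background is high, since 30.9% of all tested genes were called lower and 33.5% higher, but the share of the 50 genes called lower was 88.0% and the share called higher was 4%. Their median log2 fold change (R783H over WT) was -0.45, beside 0.029 for all tested genes. CPM ranges of the groups did not overlap for the 46 called genes (68.1% of all tested genes), with R783H below in 44 (33.1% of all tested genes) and above in 2 (35.0%). Most changes were moderate: 12 of the falls reached 1.5-fold (9.54% of all tested genes) and 1 of the rises did (15.1%). Without R783H B, 46 fell and 2 rose, where 34.3% and 34.7% of 14311 tested genes were called. These genes are well counted, and 48 of them averaged at least 1000 counts, a depth chosen after the values were seen. Among the 5496 tested genes at that depth 43.0% were called lower and 31.4% higher, beside 44 and 1 of the 48. Without TMM factors, as a share of each library's total counts, the 50 genes together took 1.92%, 1.93% and 1.93% in WT A, B and C. In R783H A, B and C they took 1.45%, 1.42% and 1.48%, each below every WT library.

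**Figure D1:**
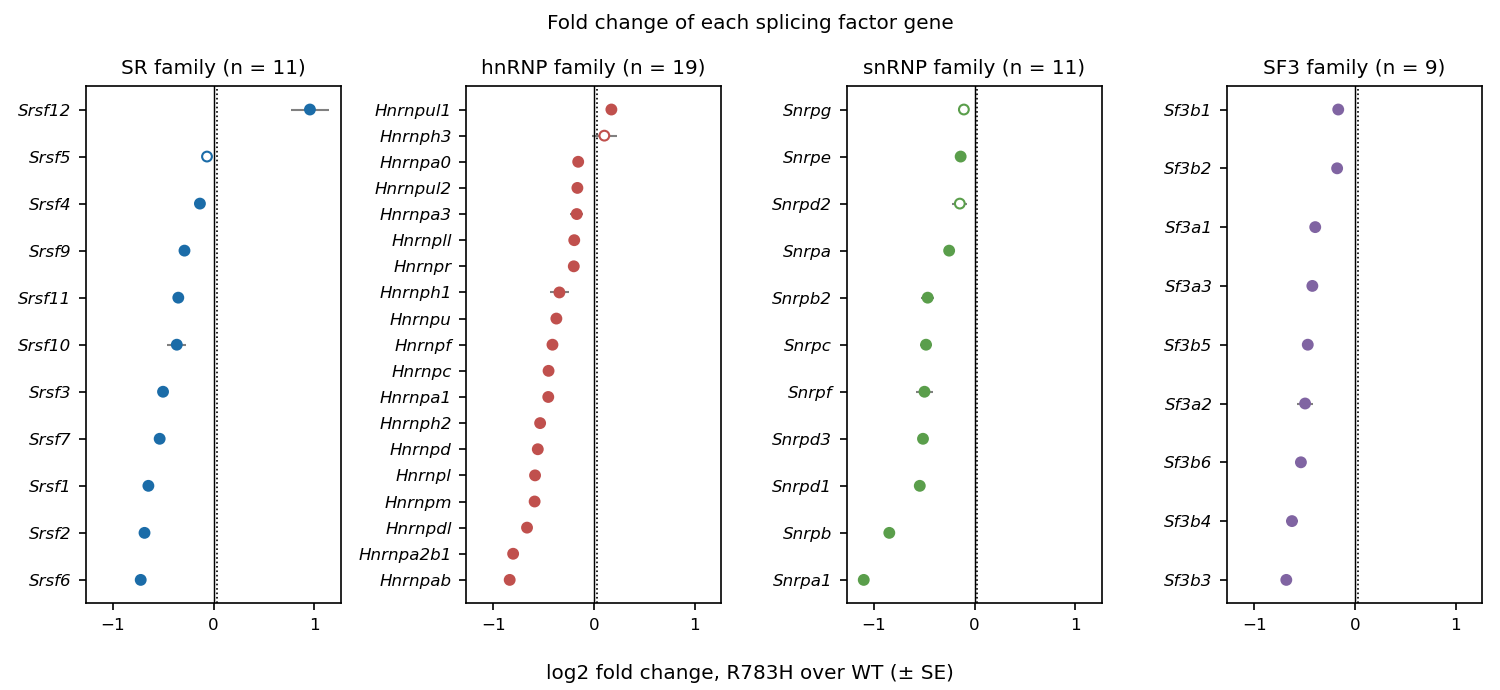
Log2 fold change of R783H over WT (x axis, points with SE) for each gene of the SR, hnRNP, snRNP and SF3 families. Filled points were called by edgeR and open points were not; the dotted line is the median of all tested genes (0.029), and 44 of the 50 points are called falls.

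In the SR family 9 of 11 genes fell, 1 rose and 1 did not pass the test, with a median of -0.37. Srsf6 had the largest fall of the family. It stood at 574, 568 and 576 CPM in the WT libraries A to C and 355, 332 and 352 CPM in the R783H libraries A to C, and the lowest WT value was far above the highest R783H value. Its log2 fold change was -0.72 (SE 0.042), and edgeR's Benjamini-Hochberg adjusted p was 1.72e-07. Srsf2, which binds exonic enhancers and is the most abundant of the family by CPM, stood at 888, 851 and 798 CPM in the WT libraries A to C and 517, 519 and 540.1 CPM in the R783H libraries A to C. The groups were again apart, with a log2 fold change of -0.69 (SE 0.047). Srsf1, the founding member of the family and an activator of exon inclusion, stood at 702, 705 and 758 CPM in the WT libraries A to C and 477, 422 and 482 CPM in the R783H libraries A to C. R783H B was the lowest library, and the log2 fold change was -0.65 (SE 0.056). Srsf7 and Srsf3, which also link splicing to mRNA export, changed by -0.54 (SE 0.039) and -0.50 (SE 0.041). Srsf10, a splicing repressor when dephosphorylated, changed by -0.37 (SE 0.093), Srsf11 by -0.35 (SE 0.054), Srsf9 by -0.29 (SE 0.056) and Srsf4 by -0.14 (SE 0.046). By edgeR, the Benjamini-Hochberg adjusted p was 2.34e-06 for Srsf1 and 4.71e-07 for Srsf2.

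The exceptions in the SR family were Srsf5 and Srsf12. Srsf5 overlapped between the groups, at 212 ± 4.77 CPM in WT and 202 ± 12.3 CPM in R783H (SD, n = 3 each), with a log2 fold change of -0.066 (SE 0.051, Benjamini-Hochberg adjusted p 0.272 by edgeR). With the offset for transcript length and GC content described below it was called lower, at -0.17. Srsf12, an SR protein that represses splicing, was the least abundant of the 50 genes, with 33, 28 and 32 raw counts in the WT libraries and 84, 66 and 92 in the R783H libraries A to C. These are 1.43 ± 0.254 CPM in WT and 2.74 ± 0.393 CPM in R783H (SD, n = 3 each), and every R783H library lay above every WT library. Its log2 fold change of 0.96 (SE 0.19) was the only rise of at least 1.5-fold among the 50 genes (edgeR, Benjamini-Hochberg adjusted p 0.00105).

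In the hnRNP family 17 of 19 genes fell, 1 rose and 1 did not pass the test, with a median of -0.41. Hnrnpab, which binds AU-rich and other single-stranded sequences, had the largest fall of the family. It stood at 1661, 1644 and 1601 CPM in the WT libraries A to C and 885, 932 and 927 CPM in the R783H libraries A to C, with a log2 fold change of -0.84 (SE 0.041, Benjamini-Hochberg adjusted p 6.32e-08 by edgeR). Hnrnpa2b1, a splicing repressor that also acts in RNA transport, stood at 1468, 1489 and 1514 CPM in the WT libraries A to C and 884, 777 and 899 CPM in the R783H libraries A to C. R783H B was the lowest library here too, and the log2 fold change was -0.80 (SE 0.055). Hnrnpdl, a relative of Hnrnpd, stood at 332, 323 and 332 CPM in the WT libraries A to C and 209, 199 and 215 CPM in the R783H libraries A to C, with a log2 fold change of -0.67 (SE 0.043). Hnrnpu, a nuclear scaffold protein and the most abundant of the 50 by CPM over all libraries, stood at 1592, 1635 and 1702 CPM in the WT libraries A to C and 1284, 1190.0 and 1327 CPM in the R783H libraries A to C. It fell less, with a log2 fold change of -0.37 (SE 0.049, Benjamini-Hochberg adjusted p 5.00e-05 by edgeR).

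The other hnRNP genes changed less than Hnrnpab, Hnrnpa2b1 and Hnrnpdl. Hnrnpm changed by -0.59 (SE 0.046), and Hnrnpl, which binds CA repeats, by -0.59 (SE 0.043). Hnrnpd, a regulator of mRNAs with AU-rich elements, changed by -0.56 (SE 0.039). Hnrnpa1, the classic antagonist of Srsf1 in exon choice, changed by -0.46 (SE 0.046) and Hnrnpc, which binds uridine tracts, by -0.45 (SE 0.043). Members that bind guanine tracts behaved unequally, at -0.54 (SE 0.051) for Hnrnph2, -0.41 (SE 0.045) for Hnrnpf and -0.34 (SE 0.091) for Hnrnph1. Their relative Hnrnph3 did not pass the test, at 6.14, 7.42 and 5.95 CPM in the WT libraries A to C and 7.45, 6.03 and 7.53 CPM in the R783H libraries A to C, with overlap, a log2 fold change of 0.10 (SE 0.12, Benjamini-Hochberg adjusted p 0.495 by edgeR). Hnrnpr, Hnrnpll, Hnrnpa3 and Hnrnpa0 changed least among the falls besides Hnrnpul2, at -0.20 (SE 0.056), -0.20 (SE 0.055), -0.17 (SE 0.066) and -0.16 (SE 0.054). The single rise in the family was in Hnrnpul1, a relative of Hnrnpu. Hnrnpul1 stood at 226, 223 and 232 CPM in the WT libraries A to C and 258, 257 and 253 CPM in the R783H libraries A to C, with R783H above WT throughout. Its log2 fold change was small, 0.17 (SE 0.039), and edgeR's Benjamini-Hochberg adjusted p was 0.00260, whereas its paralog Hnrnpul2 fell by 0.17 (SE 0.042).

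**Figure D2:**
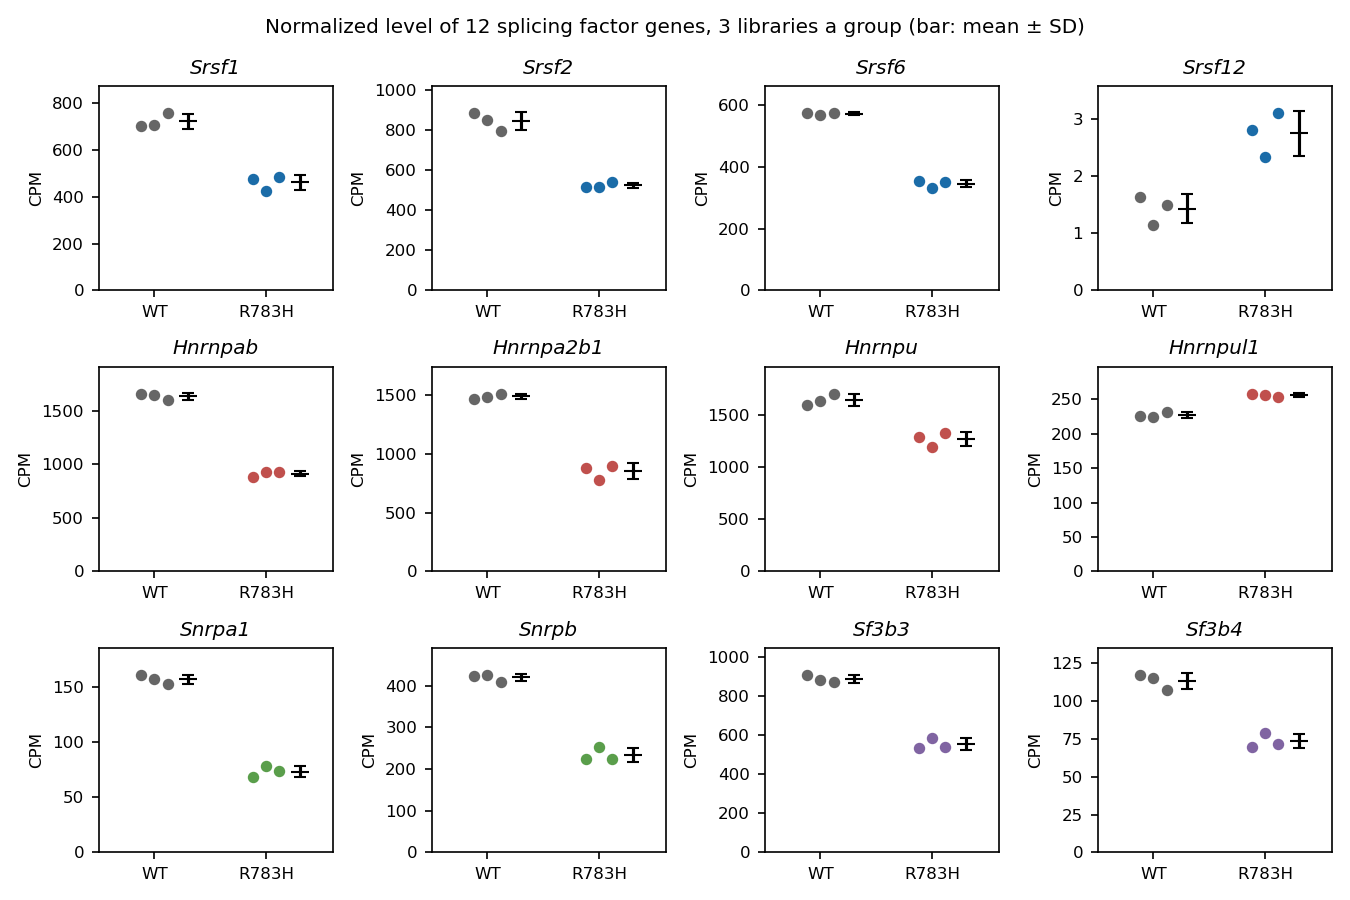
CPM (y axis, from 0) of 12 genes in the 3 WT libraries (grey points) and the 3 R783H libraries (coloured points, replicates A to C from left to right), with the mean and SD of each group beside them. In 10 panels the R783H points lie below the WT points, and in Srsf12 and Hnrnpul1 they lie above.

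In the snRNP family 9 of 11 genes fell, 0 rose (0 also at an unadjusted p under 0.05, and by DESeq2 and limma-voom) and 2 did not pass the test, with a median of -0.48. Snrpa1, a protein of the U2 particle, had the largest fall of all 50 genes. It stood at 161, 157 and 153 CPM in the WT libraries A to C and 68.4, 78.1 and 73.6 CPM in the R783H libraries A to C, so its R783H level was less than that of any WT library by a wide margin, at 0.466 times the WT level. Its log2 fold change was -1.10 (SE 0.054), and edgeR's Benjamini-Hochberg adjusted p was 7.05e-08. Its partner Snrpb2, with which it binds a stem-loop of U2 RNA, changed by -0.47 (SE 0.065). Of the U1 proteins, Snrpc changed by -0.48 (SE 0.056) and Snrpa by -0.25 (SE 0.053).

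The Sm proteins, which form the ring shared by the particles, fell unequally, with 5 of 7 called lower. Snrpb stood at 424, 427 and 410.1 CPM in the WT libraries A to C and 225, 253 and 224 CPM in the R783H libraries A to C, with a log2 fold change of -0.85 (SE 0.053, Benjamini-Hochberg adjusted p 2.56e-07 by edgeR). Snrpd1 stood at 118, 121 and 128 CPM in the WT libraries A to C and 83.9, 82.6 and 85.1 CPM in the R783H libraries A to C. Its libraries were close within each group, and its log2 fold change was -0.54 (SE 0.046). Snrpd3, which pairs with Snrpb in the ring, changed by -0.51 (SE 0.041), Snrpf by -0.50 (SE 0.088) and Snrpe by -0.14 (SE 0.052). Snrpd2 and Snrpg did not pass the test. Snrpd2 stood at 267, 249.9 and 231 CPM in the WT libraries A to C and 199.5, 247 and 228 CPM in the R783H libraries A to C, with overlapping groups and a log2 fold change of -0.15 (SE 0.075). Snrpg stood at 48.7, 50.2 and 47.1 CPM in the WT libraries A to C and 45.1, 47.4 and 43.2 CPM in the R783H libraries A to C, also with overlap, and its log2 fold change was -0.11 (SE 0.054). By edgeR, the Benjamini-Hochberg adjusted p was 0.111 for Snrpd2 and 0.110 for Snrpg. Without R783H B, the R783H library where both were highest, the log2 fold changes were -0.24 and -0.16 and both genes were called lower, which made 11 of 11 for the family.

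In the SF3 family all 9 genes fell, 3 of SF3A and 6 of SF3B, with a median of -0.47; 0 rose by any of these tests. These subunits belong to the part of the U2 particle that grips the branch point. Sf3b3, the most abundant of the family by CPM, had the largest fall. It stood at 912, 884 and 873 CPM in the WT libraries A to C and 535, 589 and 539.6 CPM in the R783H libraries A to C, with a log2 fold change of -0.68 (SE 0.047, Benjamini-Hochberg adjusted p 4.74e-07 by edgeR). Sf3b4 stood at 117, 115 and 107 CPM in the WT libraries A to C and 69.9, 78.7 and 71.6 CPM in the R783H libraries A to C, with R783H B the highest R783H library and a log2 fold change of -0.63 (SE 0.057). Sf3b6, a small SF3B subunit, stood at 73.6, 72.2 and 75.1 CPM in the WT libraries A to C and 49.3, 52.8 and 50.1 CPM in the R783H libraries A to C. The log2 fold change was -0.54 (SE 0.049). With TMM scaling the 3 SF3A subunits lay close together, at -0.39 (SE 0.054) for Sf3a1, -0.50 (SE 0.076) for Sf3a2 and -0.42 (SE 0.043) for Sf3a3. The length and GC offset described below spread them wider and changed their order, to -0.55, -0.31 and -0.41. Sf3b5 changed by -0.47 (SE 0.049). The smallest changes were in Sf3b2, at -0.18 (SE 0.047), and Sf3b1, at -0.17 (SE 0.046), the scaffold that clamps the branch helix and is often mutated in blood cancers. By edgeR, Benjamini-Hochberg adjusted p values in this family ran from 4.74e-07 to 0.00782.

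**Figure D3:**
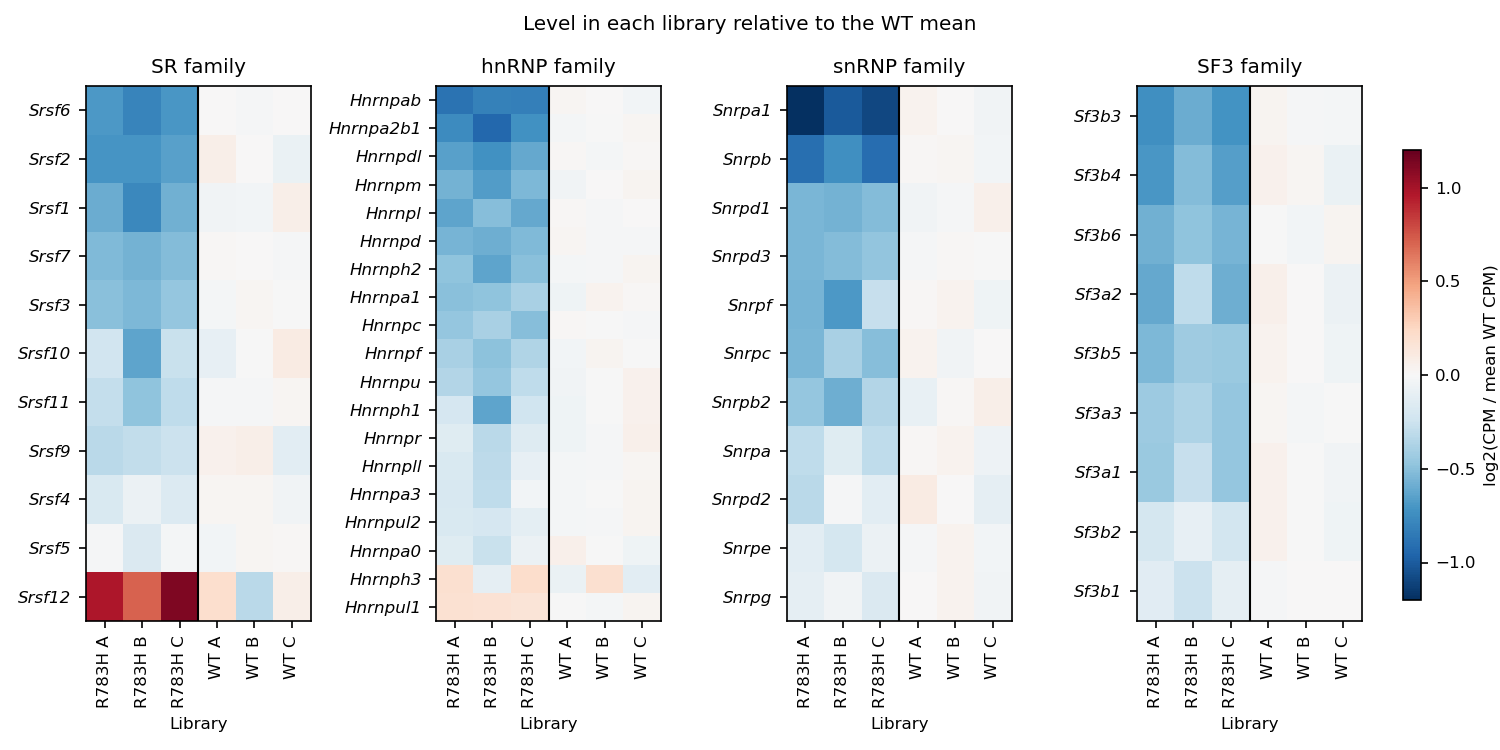
Log2 ratio of each library's CPM to the mean of the 3 WT libraries (colour scale, blue lower and red higher), with genes as rows ordered by fold change within each family and libraries as columns. The 3 R783H columns are blue for most rows, Srsf12 and Hnrnpul1 are red, and R783H B is bluer than A and C for Srsf10 and Hnrnph1.

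The smaller falls depended on the scaling and on single libraries. With scaling by library size alone 35 of the 50 genes were called lower and 2 higher, where 25.4% and 40.0% of all tested genes were. The calls lost were those of Srsf4, Hnrnpa0, Hnrnpul2, Hnrnpa3, Hnrnpll, Hnrnpr, Snrpe, Sf3b1 and Sf3b2, whose log2 fold changes with TMM lay between -0.20 and -0.14 and with library size alone between -0.12 and -0.055. Of these, 4 were also not called in some fits that left out a library. Srsf4 was not called without R783H A (-0.13), R783H C (-0.13), WT A (-0.13) or WT B (-0.13). Hnrnpa3 was not called without R783H A (-0.18) or without WT A (-0.19), B (-0.18) or C (-0.16). Hnrnpa0 was not called without WT A (-0.13) or WT B (-0.16). Snrpe was not called without R783H A (-0.16), WT A (-0.15) or WT B (-0.12), nor without a low-count filter (-0.13). The other 37 called genes kept their call and their direction in all 15 alternatives.

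Across all genes fold changes followed transcript length, with a Spearman rank correlation of 0.243 over 13763 genes, which share the same 6 libraries and are not independent, so length was examined for these 50. Their longest transcripts had a median of 3068 nt, near the 3254 nt of all tested genes. The snRNP genes were shorter, with a median of 1690 nt, and the hnRNP genes longer, with 3784 nt. An offset per gene and library for length and GC content left 43 genes called lower and 2 higher, where 37.1% and 30.4% of 13763 genes were. The family medians with this offset were -0.47 for SR, -0.57 for hnRNP, -0.48 for snRNP and -0.53 for SF3. Hnrnpa0 (-0.12) and Snrpe (-0.069) were no longer called. Sf3b1 moved from -0.17 to -0.40, Hnrnpu from -0.37 to -0.68 and Hnrnpr, with a longest annotated transcript of 21452 nt, from -0.20 to -0.76. Over the 50 genes the rank correlation of length with fold change was 0.0619 with TMM and -0.335 with the offset (snRNP genes -0.336 and -0.691, n = 11). Over all 50 the negative relation was thus seen only with the offset, and the fold changes given with the offset carry it. Snrpa1 stayed at -1.09, Snrpb at -0.82 and Hnrnpab at -0.84.

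**Figure D4:**
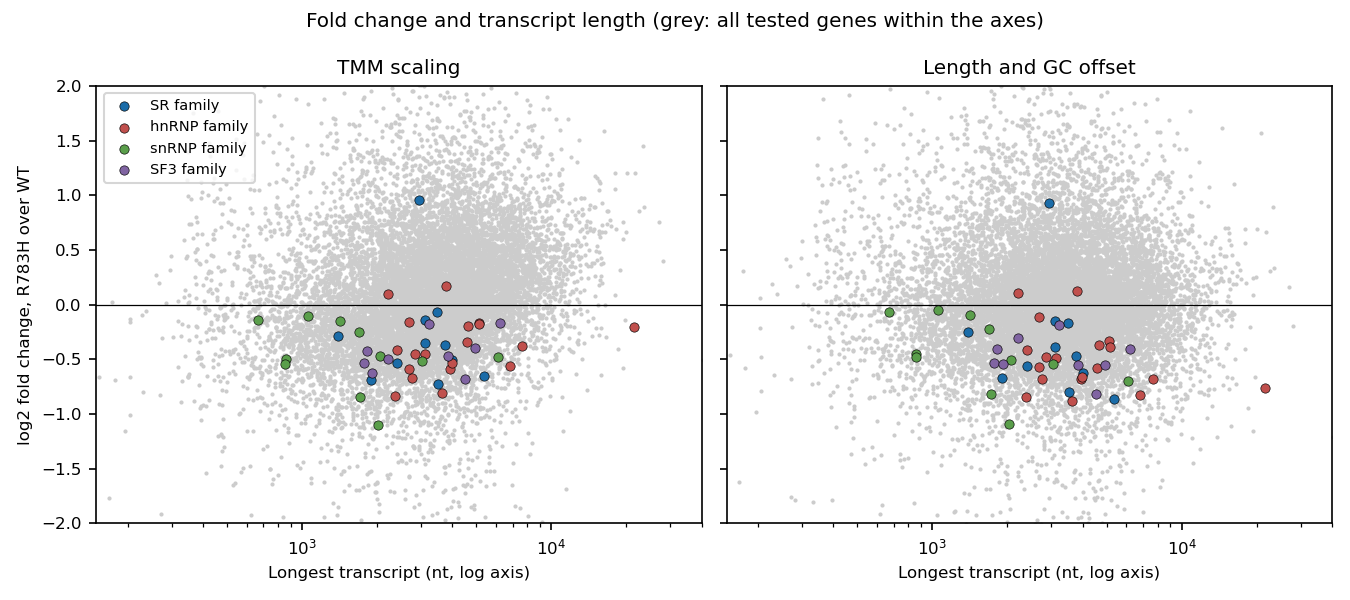
Log2 fold change (y axis) against the length of the longest transcript (x axis, log scale) for the tested genes within the axes (grey) and the 4 families (colours), with TMM scaling on the left and with the length and GC offset on the right. The families lie mostly below 0 in both panels, with SR, hnRNP, snRNP and SF3 medians of -0.37, -0.41, -0.48 and -0.47 on the left and -0.47, -0.57, -0.48 and -0.53 on the right.

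Several of these genes have processed pseudogenes or neighbours on the other strand, so the share of 50-base stretches of the longest transcript that also occur in transcripts of other genes, on either strand, was computed. In 24 genes under 5% of the stretches were shared, and 21 of these were called lower and 2 higher, with a median log2 fold change of -0.41. Of 17 genes with 5% to 25% shared, 14 were called lower and 0 higher. All 9 genes with at least 25% shared were called lower: Hnrnpf (67.3%) and Hnrnpa1 (28.3%), mainly with pseudogenes, Sf3b4 (51.2%), Hnrnpa3, Hnrnpm, Snrpf, Srsf2, Srsf4 and Hnrnpab. Counts of these 9 are uncertain, since it is not known how reads with several origins were counted. Hnrnpab shares 29.1% of its exon bases with Phykpl on the other strand, but Phykpl averaged 258 counts against 31424 for Hnrnpab. Srsf2 shares 25.3% with Mfsd11 and Mettl23, which averaged 642 and 201 counts, and Mfsd11 rose by 0.50 (SE 0.064). Snrpf shares 85.4% with Ccdc38 and a non-coding gene, and Ccdc38 averaged 27.3 counts against 1157. Sf3a2 shares 16.1% with Plekhj1, which had 49.5% as many counts and changed by -0.36 (SE 0.070), the highest share among the 8 partners examined. The partner genes were looked up after the values had been seen, and use of strand in the counting is not stated.

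Levels can be compared between genes only per length. Per kb of the longest transcript, WT levels in the hnRNP family ran from 2.94 CPM per kb for Hnrnph3 to 690.1 ± 13.0 (SD, n = 3) for Hnrnpab, which was followed by Hnrnpa2b1 at 409 ± 6.34. In R783H Hnrnpab was at 386 ± 10.8 and Hnrnpa2b1 at 234 ± 18.1 CPM per kb. Srsf2 led the SR family in WT with 445 ± 23.8 CPM per kb. Srsf6 (162 ± 1.14) and Srsf7 (161 ± 1.69) came next and did not differ beyond their spread. Srsf12 was lowest, at 0.485 ± 0.0866 CPM per kb. Snrpb led the snRNP family with 246 ± 5.27 and Sf3b3 the SF3 family with 197 ± 4.37 CPM per kb. The order rests on the transcript chosen. With the median length of protein-coding transcripts Hnrnpa2b1 (907 CPM per kb) passed Hnrnpab (813), and Sf3a2 passed Sf3b3, while Srsf2 and Snrpb still led their families.

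Since most of these genes moved together, their promoters were compared, using the 250 bases before an annotated start in RefSeq (GRCm38.p6). Such windows were at hand for 44 of the 50 genes, and the start can lie inside the gene. The letters CCGGAAG on either strand, the core of many ETS-factor sites, were found in 15 of the 44 genes (34.1%), beside 15.4% of 10399 tested protein-coding genes and 7.83% of all 27025 genes with a window. CCAAT on either strand was found in 20 (45.5%, beside 41.1% of tested and 37.5% of all), the E-box CACGTG in 4 (9.09%, beside 10.1% and 6.86%), and the NRF1 motif in 1 (2.27%, beside 1.88% and 0.877%). The first 3 of these motifs do not contain one another. The 15 genes with CCGGAAG had a median log2 fold change of -0.42 and the other 29 with a window -0.45. A match is a description of letters and not of binding.

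The promoters below are those of the gene with the largest fall in each family, and of the riser Srsf12, among the 36 genes whose annotated start matched a GENCODE transcript. They are written 5′ to 3′ on the strand of the gene and end at the base before the start used. CCAAT and CCGGAAG, or their reverse complements, are in capitals. For Srsf2 (gene end 116853675) and Srsf12 (gene start 33208991) that start is internal, and the window lies within the annotated gene. The window of Hnrnpa2b1 (gene end 51470048) lies partly within it. In these genes the motif positions do not refer to the outer 5′ end of the gene. Srsf2 (chr11:116853095-116853344, minus strand) and Hnrnpa2b1 (chr6:51469895-51470144, minus strand) each hold 1 CCAAT, starting 82 and 51 bases before the start. Sf3b6 (chr12:4817358-4817607, plus strand) holds CCGGAAG on each strand, at 85 and 70 bases. Snrpa1 (chr7:66060086-66060335, plus strand), which fell most, and Srsf12 (chr4:33209022-33209271, plus strand), which rose, hold neither.
Srsf2: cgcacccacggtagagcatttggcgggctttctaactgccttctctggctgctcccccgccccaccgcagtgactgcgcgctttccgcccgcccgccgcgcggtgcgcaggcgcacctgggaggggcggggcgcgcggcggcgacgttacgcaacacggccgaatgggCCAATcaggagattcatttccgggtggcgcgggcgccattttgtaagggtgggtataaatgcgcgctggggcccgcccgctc
Hnrnpa2b1: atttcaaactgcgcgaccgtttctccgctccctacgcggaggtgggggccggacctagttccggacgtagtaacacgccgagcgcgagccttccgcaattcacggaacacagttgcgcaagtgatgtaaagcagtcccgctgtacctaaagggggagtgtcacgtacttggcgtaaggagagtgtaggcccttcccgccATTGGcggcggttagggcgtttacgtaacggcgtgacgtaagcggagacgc
Snrpa1: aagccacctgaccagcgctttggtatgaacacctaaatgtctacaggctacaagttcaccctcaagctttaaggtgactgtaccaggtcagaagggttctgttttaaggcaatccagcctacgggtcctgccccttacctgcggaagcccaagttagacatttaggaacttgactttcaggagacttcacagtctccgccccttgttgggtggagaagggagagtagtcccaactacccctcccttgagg
Sf3b6: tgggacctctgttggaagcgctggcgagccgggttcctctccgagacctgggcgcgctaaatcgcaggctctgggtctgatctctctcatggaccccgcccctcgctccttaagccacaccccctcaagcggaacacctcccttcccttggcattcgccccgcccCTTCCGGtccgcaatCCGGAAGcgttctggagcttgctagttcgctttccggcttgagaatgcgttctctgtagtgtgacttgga
Srsf12: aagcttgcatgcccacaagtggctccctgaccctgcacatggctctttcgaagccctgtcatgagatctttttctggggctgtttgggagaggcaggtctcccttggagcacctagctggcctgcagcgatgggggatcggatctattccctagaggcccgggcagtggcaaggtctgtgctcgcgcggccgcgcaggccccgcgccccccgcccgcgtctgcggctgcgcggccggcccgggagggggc

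Other genes of the splicing machinery were taken from 8 lists of general knowledge, 110 genes in all, of which 109 were tested. Of these 65 (59.6%) were called lower and 20 (18.3%) higher, beside 30.9% and 33.5% of all tested genes, with a median of -0.23. With the length and GC offset 77 were called lower and 16 higher, beside 37.1% and 30.4% of the genes that have a length. The list for assembly of the Sm ring on small nuclear RNA, which also holds Coil and Snupn of later steps, had 12 of 13 genes lower and 1 higher. Its median was -0.59, and the falls ran from -0.14 to -0.86. The smaller of these falls were not called in every one of the 15 alternatives: Gemin8, at -0.32 (SE 0.11), was called in 12, Gemin2, at -0.14 (SE 0.056), in 9 and Snupn, at -0.18 (SE 0.069), in 8. Among them Gemin6, a subunit of the SMN complex, stood at 38.1, 39.6 and 40.8 CPM in the WT libraries A to C and 22.5, 21.0 and 21.8 CPM in the R783H libraries A to C, with a log2 fold change of -0.86 (SE 0.058). Smn1, the core of that complex, changed by -0.82 (SE 0.057). Prmt5, Wdr77 and Clns1a, which methylate and chaperone Sm proteins before assembly, changed by -0.78 (SE 0.059), -0.76 (SE 0.040) and -0.69 (SE 0.048). The exception was Gemin7, at 0.28 (SE 0.052). By edgeR, the Benjamini-Hochberg adjusted p was 4.25e-07 for Gemin6 and 7.70e-04 for Gemin7.

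LSm proteins, the Sm relatives found on U6 RNA and elsewhere, had 6 of 9 genes lower and 1 higher, with Lsm2 at -0.70 (SE 0.047) and Lsm11, a part of the U7 particle of histone mRNA processing, at 0.50 (SE 0.058). Under the length and GC offset Lsm2 stood at -0.67 and Lsm11 at 0.27, both still called. Of 18 Prp and U4/U6.U5 proteins 13 were lower and 1 higher. Prpf19, a ubiquitin ligase of the spliceosome, stood at 394 ± 15.8 CPM in WT and 234 ± 14.0 CPM in R783H (SD, n = 3 each) with a log2 fold change of -0.75 (SE 0.052), and the riser Prpf40b at 28.1 ± 1.86 CPM in WT and 46.0 ± 0.337 CPM in R783H (SD, n = 3 each) with 0.71 (SE 0.060). Of 7 particle proteins with Snrnp symbols 3 were lower and 3 higher, but with the length and GC offset 3 were lower and 1 higher. None of the 3 rises was called in all 15 alternatives: Snrnp200, a helicase of the U5 particle, at 0.19 (SE 0.047) and at -0.049 with the offset, was called higher in 13, and Snrnp27, at 0.14 (SE 0.050), in 8. Snrnp40, a U5 protein, changed by -0.64 (SE 0.047) and Snrnp48, a protein of the minor spliceosome, by 0.23 (SE 0.078), the latter with the opposite sign and no call under the length and GC offset. Snrnp48 was also not called without R783H A (0.17), R783H C (0.19), WT A (0.20) or WT B (0.24). Among 18 genes of splice site recognition 11 were lower and 1 higher. Phf5a, an SF3B subunit without an Sf3 symbol, stood at -0.71 (SE 0.056), and Zrsr1, a relative of U2af1, at 0.24 (SE 0.058).

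The SR-related proteins and SR protein kinases went both ways, with 7 of 16 tested genes higher (43.8%) and 4 lower (25%), shares near those of all tested genes. The balance turned with the length and GC offset, under which 6 were higher and 8 lower and the median moved from 0.082 to -0.079. Srrm2, a large splicing coactivator, was called higher at 0.26 (SE 0.040) and not called with the offset, at -0.040. Tra2b, an activator of exon inclusion, stood at 189.7 ± 3.50 CPM in WT and 123 ± 8.16 CPM in R783H (SD, n = 3 each), with a log2 fold change of -0.62 (SE 0.052). All 4 kinases of the Clk family, which phosphorylate SR proteins in the nucleus, were called higher, where 33.5% of all tested genes were. They stood at 0.37 (SE 0.084) for Clk1, 0.17 (SE 0.046) for Clk2, 0.38 (SE 0.052) for Clk3 and 0.43 (SE 0.081) for Clk4. All 4 kept that call in all 15 alternatives, but with the length and GC offset they stood at 0.16, 0.19, 0.29 and 0.31. Of the kinases that prepare SR proteins for nuclear import, Srpk2 rose by 0.52 (SE 0.056) and Srpk1 changed by -0.32 (SE 0.041), while Srpk3 was under the filter. With the offset Srpk2 stood at 0.25 and Srpk1 at -0.47. The Clk genes were singled out after their values were seen. Among 18 hnRNP proteins under other names 12 were lower and 2 higher. Pcbp4, which binds cytosine tracts, changed by -0.83 (SE 0.058), whereas Ptbp3, a relative of the splicing repressor Ptbp1, rose from 118 ± 12.7 to 166 ± 16.6 CPM (SD, n = 3 each). Under the length and GC offset Pcbp4 stood at -0.64, and Ptbp3 at 0.19 in place of 0.50, both still called. Of 10 genes of nonsense-mediated decay, which acts on the unproductive isoforms of many SR genes, 4 were higher and 4 lower, near the shares of all tested genes, and with the length and GC offset 2 were higher and 5 lower. Smg5 changed by -0.42 (SE 0.040), and Smg1, the kinase of this pathway, rose by 0.48 (SE 0.084) but was not called with the offset (0.022). Smg6, the endonuclease of the pathway, stood at 0.14 (SE 0.046) and at -0.053 with the offset, and was called higher in 8 of the 15 alternatives.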

How the data were processed

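The authors deposited 1 table of raw read counts per Entrez gene, with a column per library; per the submitters' processing notes CASAVA 1.4, HISAT2 and SAMtools and the build mm10 were used, and the counting tool, annotation and use of strand are not given in the sources used here. Symbols came from RefSeq (GRCm38.p6), which matched 25275 of 27179 identifiers, and lengths from GENCODE M21. Genes were kept with filterByExpr (minimum count 10, total 15), scaled with TMM and tested with edgeR 4.0.16 (quasi-likelihood, group as the single term, R 4.3.3), and CPM use the TMM-scaled library size. The SE is the log2 fold change divided by the square root of F. The offset used splines with 4 degrees of freedom of log length and GC content per library. Alternatives used RLE factors, library size alone, other filters, DESeq2 1.42.0, limma-voom 3.58.1, the replicate letter as a block and leaving out each library. On simulated counts of 14199 genes the fit called 90 of 100 genes changed 2-fold and 81 of 100 changed 1.5-fold, with 3 false calls. That simulation used 1 dispersion for all genes and left the other genes unchanged, unlike these data, so its false calls do not carry over to them. With a simulated trend along length alone, 5561 genes were called, and 0 with the offset. That trend followed log length, which the offset fits, and held no other change. It therefore cannot show whether the offset keeps true differences. Total counts ran from 20894277 to 29079670 per library, and without molecular identifiers repeat reads of a molecule cannot be told apart, so the floor covers counting error only. The genes, lists and tests were chosen with earlier results of these data known. Values in every library are given for the 3 largest called rises and falls per family with a mean of at least 50 counts in the group where it is higher, and for the most abundant gene. Outside this rule, they are also given for Hnrnph3, Snrpd2 and Snrpg, which were not called, and for Gemin6 of the other lists.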

Additional observations from a re-analysis of the deposited data

How the results depend on the processing

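Over the 50 genes and 15 alternatives, 26 of 750 values lost a call, 4 gained one and 1 value of an uncalled gene changed sign, that of Srsf5 with library size alone. The count of genes called over the whole table stayed between 8161 (without WT B) and 9882 (without R783H B). The median of the 50 genes moved from -0.45 to -0.48 with RLE factors, -0.48 with DESeq2, -0.37 with library size alone and -0.50 with the length and GC offset. With library size alone the family medians were -0.28 (SR), -0.33 (hnRNP), -0.40 (snRNP) and -0.39 (SF3), and with the length and GC offset -0.47, -0.57, -0.48 and -0.53. Leaving out each library kept the SR median between -0.46 (without R783H A) and -0.31 (without R783H B), and the snRNP median between -0.53 (without R783H C) and -0.44 (without R783H B). With the offset Snrnp48 changed sign to -0.044 and Trim71 to -0.27, where Trim71 was called lower (adjusted p 0.00256, edgeR's quasi-likelihood test). The cause of these moves was not tested.

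Libraries that share a letter were not more alike than others. Deviations from the group means correlated across genes at -0.132 for A, 0.0183 for B and 0.155 for C, beside -0.23 to 0.218 for unlike letters. With 3 libraries a group these values depend on one another, so they cannot settle whether the libraries were paired. The replicate block gave 9260 called genes against 9152, and 44 of the 50 genes lower as before. The replicate block with the offset gave medians of -0.50 (all 50), -0.47 (SR), -0.57 (hnRNP) and -0.53 (SF3), with -0.044 for Snrnp48 and -0.27 for Trim71, and Zrsr1 was then not called (0.12).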

Other observations

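R783H B stood differently against R783H A and C in the SR, hnRNP and SF3 genes. Among the SR genes its CPM was the lowest of the 3 R783H libraries in 8 of 11 and among the hnRNP genes in 14 of 19, whereas it was the highest in 8 of 9 SF3 genes. Among the 11 snRNP genes it was the highest in 6 and the lowest in 4. Over all tested genes it was the lowest in 5791 and the highest in 5757 of 14199. As a percentage of the mean of A and C, R783H B stood at 75.4% for Hnrnph1, 76.5% for Srsf10 and 123% for Sf3a2. Without it Srsf10 changed by -0.27 in place of -0.37, Hnrnph1 by -0.24 in place of -0.34 and Sf3a2 by -0.62 in place of -0.50, and all 3 were still called lower.

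Some pairs of partner proteins differed between the groups in the ratio of their counts, which needs no scaling, and others did not. These pairs were picked after their values were seen and carry no test. The ratio of Snrpa1 to Snrpb2, partners in the U2 particle, was 1.94, 1.76 and 1.65 in the WT libraries A to C and 1.07, 1.33 and 1.07 in the R783H libraries A to C. The ratio of Snrpb to Snrpd3, neighbours in the Sm ring, was 1.96 ± 0.0404 in WT and 1.56 ± 0.124 in R783H (SD, n = 3 each). That of Sf3b3 to Sf3b1, subunits of SF3B, was 1.74 ± 0.0531 and 1.22 ± 0.134. In these 3 pairs the R783H libraries all lay below the WT libraries. The ratio of Snrpe to Snrpf went the other way, from 1.37 ± 0.0243 in WT to 1.78 ± 0.172 in R783H. By contrast, that of Snrpd1 to Snrpd3 was 0.570 ± 0.0222 in WT and 0.558 ± 0.0113 in R783H, and that of Prmt5 to Wdr77, which form 1 methyltransferase complex, was 1.22, 1.24 and 1.19 in the WT libraries and 1.14, 1.31 and 1.17 in the R783H libraries, both with overlapping groups.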
